A study of Mus musculus with 13 samples.

Results

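The histone marks H3K4me3 and H3K27me3 were read at the promoters of oligodendrocyte precursor cells (OPCs), and each annotated gene was placed in a state by the peaks within 2 kb of a transcription start site (TSS). Of 42507 genes, 19533 carried at least 1 of the marks. The genes with H3K4me3 only numbered 13815, which is 32.5% of those examined, and the genes with H3K27me3 only numbered 2514, or 5.91%. Both marks were listed at 3204 genes, 7.54%, and neither mark at 22974 genes, 54.0%. The series holds 13 samples, of which 2 ChIP-Seq libraries, OPC H3K4me3 and OPC H3K27me3, are compared here. The OPCs came from brains of untreated C57BL/6 mice at postnatal day 7. Microglia and endothelial cells were first removed on plates coated with the lectin BSL-1, and the OPCs were then caught on plates coated with an antibody to PDGFRα. Each mark has 1 library and no replicate, so no difference between the marks could be tested over animals or preparations, and intervals below are exact binomial (Clopper-Pearson) 95% intervals that cover counting error only.

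H3K4me3, trimethylation of lysine 4 of histone H3, is laid down around the start sites of active genes and of genes held ready for transcription by enzymes of the trithorax group. H3K27me3 is deposited by Polycomb repressive complex 2, whose catalytic subunit is EZH2 or EZH1, and marks genes kept silent, among them the regulators of other lineages. Promoters with both marks are often called bivalent and are best known at developmental genes of stem cells. OPCs are dividing glial progenitors that express the receptor PDGFRα and the transcription factors OLIG2 and SOX10, and they give rise to the myelinating cells of the brain.

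In all 6 histone libraries of the series the antibody label names the other mark than the title does, and the titles were followed here. The list titled H3K4me3 had a peak within 2 kb of the TSS of 319 of 335 housekeeping genes (ribosomal proteins, proteasome, respiratory chain, RNA polymerase and splicing, DNA replication and histones), whereas the list titled H3K27me3 had one at 22 of them. The H3K27me3 list had a peak at 39 of 39 genes of the Hox clusters, and the widest peak in their windows had a median width of 22110 bp. Among genes that mark cell types, 20 of 22 OPC identity genes had H3K4me3. Of 15 microglial genes, 2 had H3K4me3, among them Csf1r with a peak of 230 bp, and 0 had H3K27me3. Of 12 endothelial genes, 4 had H3K4me3 (Erg, Kdr, Flt1 and Esam), and all 4 also had H3K27me3. Of 20 neuronal genes 16 had H3K4me3, and of 15 astrocyte genes 10 did. Over all protein-coding genes, H3K4me3 was listed at 60.8% and H3K27me3 at 16.4%. The part of other cells in any state below was not tested.

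One promoter of each state is printed to show how the base composition differed. These are the 300 bases from 250 before the RefSeq start site to 50 after it in build GRCm38.p6, 5′ to 3′, with every CpG in capitals. Zfp488, a transcription factor gene of the oligodendrocyte lineage, had the highest H3K4me3 fold enrichment among the OPC identity genes with H3K4me3 only. Isl1, a LIM homeobox gene of motor neurons, had the longest stretch under both marks among the patterning genes. Hoxb1, which patterns the hindbrain, had the highest H3K27me3 fold enrichment of the patterning genes with H3K27me3 only. Mog, which codes for a myelin surface protein, had the lowest CpG observed/expected ratio (defined with the base composition results) among the myelin genes with neither mark that had an entry in the RefSeq table.
Zfp488 (chr14:33978715-33979014, minus strand): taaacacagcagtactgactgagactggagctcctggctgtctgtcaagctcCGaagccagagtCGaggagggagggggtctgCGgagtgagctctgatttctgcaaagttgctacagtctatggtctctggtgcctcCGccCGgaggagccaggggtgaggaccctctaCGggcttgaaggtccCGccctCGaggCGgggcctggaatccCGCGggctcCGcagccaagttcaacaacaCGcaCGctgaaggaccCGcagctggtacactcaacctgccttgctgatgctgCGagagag
Isl1 (chr13:116309639-116309938, minus strand): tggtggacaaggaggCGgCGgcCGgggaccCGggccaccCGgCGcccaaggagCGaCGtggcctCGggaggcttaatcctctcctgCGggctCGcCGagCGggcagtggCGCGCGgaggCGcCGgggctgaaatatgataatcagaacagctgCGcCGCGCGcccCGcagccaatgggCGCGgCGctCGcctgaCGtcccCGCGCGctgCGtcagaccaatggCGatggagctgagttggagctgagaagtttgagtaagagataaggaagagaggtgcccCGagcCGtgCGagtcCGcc
Hoxb1 (chr11:96365508-96365807, plus strand): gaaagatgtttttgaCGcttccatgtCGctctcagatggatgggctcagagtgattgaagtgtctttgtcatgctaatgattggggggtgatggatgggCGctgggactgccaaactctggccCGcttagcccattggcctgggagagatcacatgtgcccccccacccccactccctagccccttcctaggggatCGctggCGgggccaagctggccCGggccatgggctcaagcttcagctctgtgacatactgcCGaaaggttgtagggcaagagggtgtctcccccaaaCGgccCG
Mog (chr17:37023349-37023648, minus strand): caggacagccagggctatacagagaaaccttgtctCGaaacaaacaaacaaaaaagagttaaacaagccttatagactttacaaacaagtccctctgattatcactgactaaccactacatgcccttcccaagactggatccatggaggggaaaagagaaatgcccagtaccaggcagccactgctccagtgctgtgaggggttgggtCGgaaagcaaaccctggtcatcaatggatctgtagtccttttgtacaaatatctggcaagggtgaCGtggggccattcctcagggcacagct

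The printed promoters hold 16 CpGs for Zfp488, 37 for Isl1, 10 for Hoxb1 and 3 for Mog. Over all genes the same stretch around the 5′ end held a median of 20 CpGs at genes with H3K4me3 only, 18 at genes with both marks, 5 at genes with H3K27me3 only and 3 at genes with neither. Zfp488 had 1 H3K4me3 peak of 1749 bp (chromosome 14, 33977177 to 33978925) with a fold enrichment of 10.6. At Isl1 a H3K4me3 peak of 1863 bp, with a fold enrichment of 4.08, lay wholly inside a H3K27me3 peak of 23527 bp (chromosome 13, 116294411 to 116317937) with a fold enrichment of 6.06. Hoxb1 lay in a H3K27me3 peak of 5932 bp with a fold enrichment of 10.4. No peak of either list fell in the window of Mog.

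The H3K4me3 list holds 18284 called peaks and the H3K27me3 list 29417, all with a false discovery rate (FDR) below 0.1 as the authors' caller gave it. The covered length was nearly the same, 21443426 bp for H3K4me3 and 21899044 bp for H3K27me3, and the mean fold enrichment over the control was 6.32 and 4.67. Read counts are not given for any peak, so the depth of the libraries is unknown and a promoter without a listed peak cannot be called free of the mark. H3K4me3 peaks had a median width of 987 bp (quartiles 450 and 1603 bp). H3K27me3 peaks had a median width of 329 bp (quartiles 197 and 767 bp), and peaks under 500 bp made up 58.8% of that list but 18.9% of its covered length. The 495 H3K27me3 peaks of at least 5 kb held 21.4% of the covered length. Both lists together covered 966704 bp in common, which is 4.51% of the H3K4me3 length and 4.41% of the H3K27me3 length.

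The marks differed in how much of them lay at start sites. Start-site windows (2 kb either side) held 76.2% of the H3K4me3 peaks and 88.0% of the H3K4me3 length, against 22.4% of the H3K27me3 peaks and 25.8% of the H3K27me3 length. Of the length covered by both marks, 61.0% lay in these windows. A peak covered a TSS itself at 82.6% of the genes with H3K4me3 and at 23.99% of the genes with H3K27me3. Near the limit of the window the H3K4me3 count was low and flat, with 259 genes whose nearest peak lay in the last 500 bp inside it and 249 genes in the first 500 bp outside. For H3K27me3 the counts were 733 genes just inside the limit and 680 just outside it. The count with both marks moved with the H3K27me3 peaks admitted, to 1153 genes with H3K27me3 peaks of at least 1 kb alone and to 1006 with a fold enrichment above 5 for both marks. Neighbouring genes share peaks. A peak that also fell in the window of another gene was found at 51.3% of the genes with H3K4me3 and 35.6% of the genes with H3K27me3, and these genes are not independent of each other.

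Protein-coding genes and lncRNAs were distributed differently over the states. Of 21938 protein-coding genes, 10876 (49.6%) had H3K4me3 only, 2459 (11.2%) both marks, 1134 (5.17%) H3K27me3 only and 7469 (34.0%) neither. Of 20569 lncRNAs, 2939 (14.3%, interval 13.8 to 14.8%) had H3K4me3 only and 15505 (75.4%, 74.8 to 76.0%) had neither mark. H3K27me3 without H3K4me3 was found at 1380 lncRNAs (6.71%, 6.37 to 7.06%). Among genes with H3K27me3, H3K4me3 was also present at 68.4% of the protein-coding genes (66.9 to 70.0%) and at 35.1% of the lncRNAs (33.0 to 37.1%). The reverse share differed less. H3K27me3 was present at 18.4% of the protein-coding genes with H3K4me3 (17.8 to 19.1%) and at 20.2% of the lncRNAs with H3K4me3 (18.9 to 21.6%). Protein-coding genes had a median of 3 TSSs, and so more windows, against 1 for lncRNAs. At the 5′ end alone, 1874 protein-coding genes had both marks and 10756 H3K4me3 only, against 688 and 2922 lncRNAs. The part of the number of TSSs in these shares was not tested.

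Genes of the OPC programme carried H3K4me3 without H3K27me3, often over several kilobases. Of 22 OPC identity genes 19 had H3K4me3 only, 86.4% against 49.6% of all protein-coding genes, and the median width of their widest peak was 3715 bp against 1369 bp over all protein-coding genes with the mark. At Olig2, which specifies the lineage, a peak of 8705 bp (chromosome 16, 91221312 to 91230016) with a fold enrichment of 8.69 covered the start site. Pdgfra, the receptor used to purify the cells, had a peak of 9047 bp (chromosome 5, 75151389 to 75160435) with a fold enrichment of 8.63. At Sox10, the transcription factor that drives myelin genes, a peak of 6336 bp with a fold enrichment of 8.88 began 897 bp downstream of the annotated 5′ end. Sox6, which holds OPCs in the progenitor state, had the widest peak of the list, 10938 bp with a fold enrichment of 6.81. Gpr17, a receptor of cells about to differentiate, had a peak of 7223 bp. Cspg4, which codes for the NG2 proteoglycan, had a peak of 3141 bp, Nkx2-2 one of 3865 bp at a start site downstream of its 5′ end and Olig1 one of 3565 bp. The exceptions in the list were Sox5, with a H3K4me3 peak of 3293 bp and a H3K27me3 peak of 419 bp at different start sites, Matn4, with a H3K27me3 peak of 182 bp and no H3K4me3 peak, and Neu4, with neither.

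Genes of myelin and differentiation were spread over the states much as all protein-coding genes were. Of 26 such genes 13 had H3K4me3 only and 9 (34.6%) neither mark, against 49.6% and 34.0% of all protein-coding genes, while 2 had both marks and 2 H3K27me3 only. Mbp, the gene of myelin basic protein, had a H3K4me3 peak of 1200 bp with a fold enrichment of 5.01, and Cnp, an enzyme of early myelin, one of 1541 bp with a fold enrichment of 6.58. Myrf, the regulator that switches myelin genes on, had a peak of 629 bp with a fold enrichment of 4.22. Yy1, a zinc finger factor required for differentiation, had a peak of 4074 bp with a fold enrichment of 7.89. Among the genes with no listed peak of either mark were Mog, Mag, Mobp, Opalin, Ermn, Aspa and Gjb1. H3K27me3 without H3K4me3 was listed at Nkx6-2, a homeobox gene of maturing oligodendrocytes, with a peak of 3380 bp and a fold enrichment of 4.46, and at Enpp6, with a peak of 188 bp. Tcf7l2, an effector of Wnt signalling in differentiation, held a H3K4me3 peak of 4098 bp with a fold enrichment of 11.4 and, at another of its start sites, a H3K27me3 peak of 3654 bp that overlapped a further H3K4me3 peak.

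**Figure D1:**
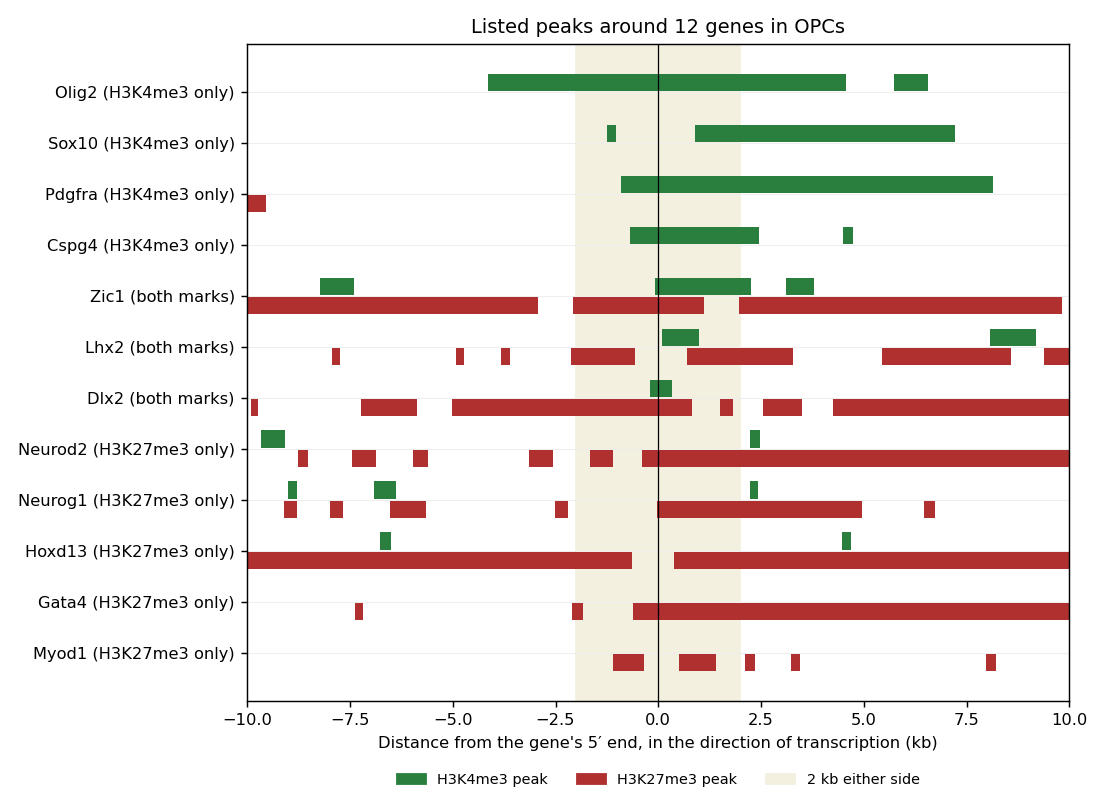
Listed H3K4me3 peaks (green) and H3K27me3 peaks (red) in OPCs around 12 genes, by distance in kb from the gene's 5′ end in the direction of transcription, with bars cut at the frame and the 2 kb either side of the 5′ end shaded. Olig2, Sox10, Pdgfra and Cspg4 show H3K4me3 and no H3K27me3 in the shaded window, Zic1, Lhx2 and Dlx2 show both, and Neurod2, Neurog1, Hoxd13, Gata4 and Myod1 show H3K27me3 alone there.

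Transcription factor genes that pattern the embryo carried H3K27me3 at 166 of 204 members, among 3593 protein-coding genes with the mark. The union of 12 lists (Hox, Dlx, LIM, Iroquois and sine oculis-related, Nkx, Pax, Sox, Forkhead, T-box, Gata, proneural, and Zic and Gli genes) held 204 genes, of which 105 (51.5%) had both marks, 61 (29.9%) H3K27me3 only, 25 (12.3%) H3K4me3 only and 13 (6.37%) neither. The corresponding shares of all protein-coding genes were 11.2%, 5.17%, 49.6% and 34.0%. A H3K27me3 peak of at least 5 kb lay in the window of 109 of the 204, or 53.4%, against 1.31% of all protein-coding genes. These 109 made up 37.98% of the 287 protein-coding genes with so wide a peak.

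The Hox genes, which set position along the body axis, were split between both marks (20 genes) and H3K27me3 only (19 genes), and 0 of 39 had H3K4me3 only. H3K27me3 peaks covered 94.97% of the Hoxa cluster (chromosome 6, 52156317 to 52262880), 94.0% of Hoxc, 91.8% of Hoxd and 72.7% of Hoxb, where clusters run from 2 kb before the outermost start site to 2 kb beyond the opposite one. H3K4me3 peaks covered 3.32%, 1.56%, 7.23% and 2.11% of the same stretches. At Hoxa5 a H3K4me3 peak of 934 bp with a fold enrichment of 3.74 lay inside a H3K27me3 peak of 44854 bp with a fold enrichment of 5.63. At Hoxd13 there was no H3K4me3 peak, and the widest H3K27me3 peak had 13599 bp. The widest H3K4me3 peak in any of the clusters had 1513 bp.

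Homeobox genes of the forebrain and the spinal cord held both marks more often than H3K27me3 alone. Both marks were listed at 5 of 6 Dlx genes, which specify interneurons, at 9 of 12 LIM homeobox genes and at 10 of 12 Iroquois and sine oculis-related homeobox genes. At Dlx2 a H3K4me3 peak of 551 bp, with a fold enrichment of 4.79, lay inside a H3K27me3 peak of 5832 bp. All 8 Zic and Gli genes, of which the Gli genes carry hedgehog signals, had both marks, and 7 of the 8 had peaks that overlapped. At Zic1 the H3K4me3 peak of 2343 bp had a fold enrichment of 9.19, and at Zic2 a peak of 3796 bp had 7.13, both wider than the median of 1416 bp at genes with H3K4me3 only. Pax genes were divided into 5 with both marks and 4 with H3K27me3 only (Pax3, Pax4, Pax7 and Pax9), and T-box genes into 7 and 7.

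Of 18 proneural genes, which drive neuronal fate, 9 had H3K27me3 only, 5 both marks, 2 H3K4me3 only and 2 neither. At Neurog1 a H3K27me3 peak of 4998 bp with a fold enrichment of 6.32 covered the start site and ran downstream, and at Neurod2 the peak was 11369 bp wide. Atoh7 was among those with H3K4me3 only. The Sox genes had H3K4me3 only in 10 of 20 cases, the highest share of the 12 patterning lists, among them Sox2, Sox4, Sox6, Sox8, Sox10 and Sox11. The peak at Sox2, a factor of neural progenitors, was 8685 bp wide with a fold enrichment of 11.02. The single Nkx gene with H3K4me3 only was Nkx2-2, a factor of the oligodendrocyte lineage, of 14 in the list. Of the Olig genes, Olig1 and Olig2 had H3K4me3 only, whereas Olig3, which acts in the dorsal spinal cord, had a H3K4me3 peak of 879 bp inside a H3K27me3 peak of 11636 bp.

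Among 44 Forkhead genes 20 had both marks, 8 H3K27me3 only, 10 H3K4me3 only and 6 neither. The 10 with H3K4me3 only were Foxj2, Foxj3, Foxk1, Foxk2, Foxm1, Foxn2, Foxn3, Foxo3, Foxo4 and Foxp3.

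**Figure D2:**
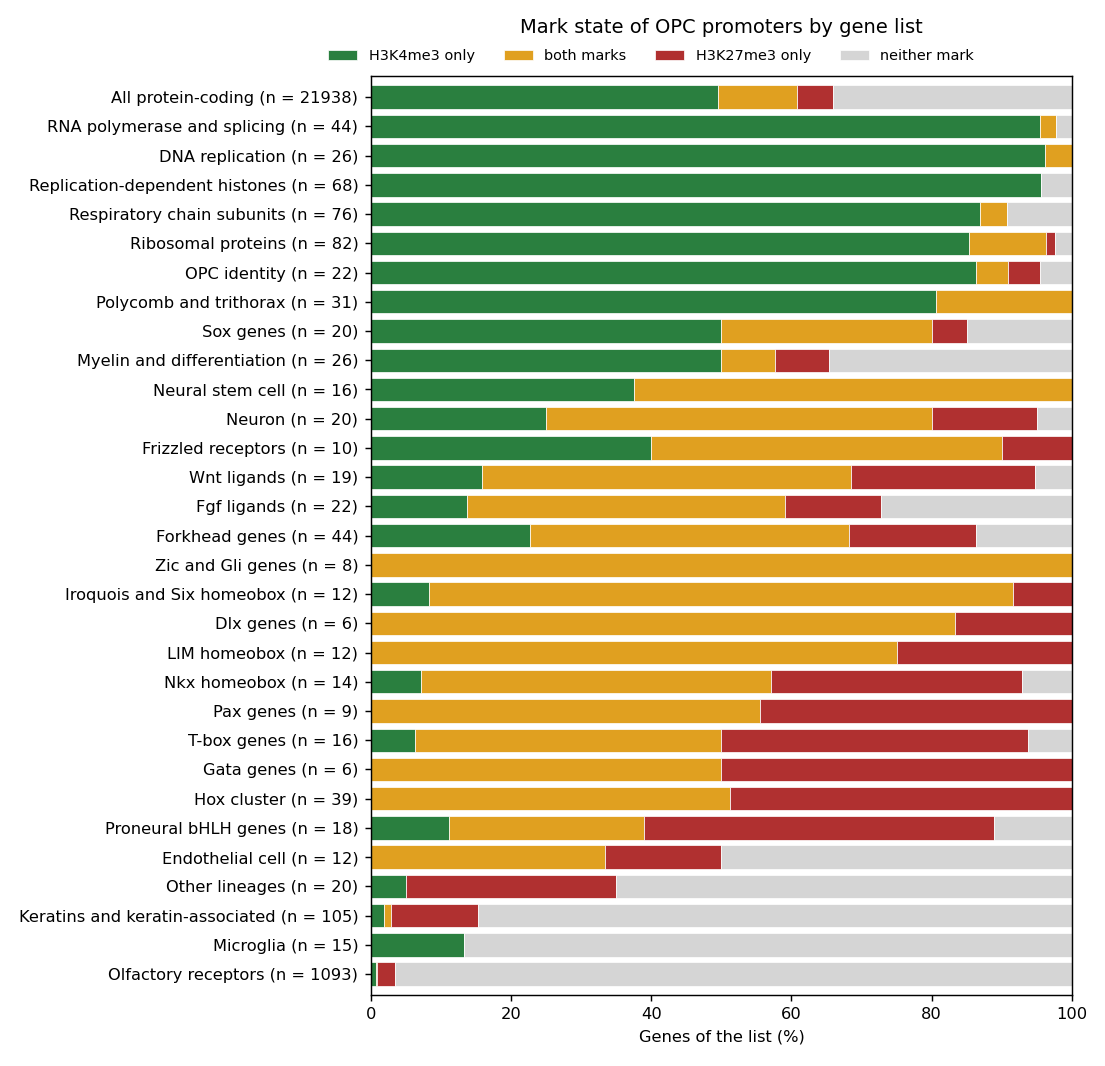
Share of the genes of 30 lists and of all protein-coding genes (top bar) in each mark state in OPCs, in percent, with the number of genes beside each name. Housekeeping lists are mostly H3K4me3 only, the homeobox, T-box, Gata and proneural lists hold mostly both marks or H3K27me3 only, and olfactory receptors hold 96.6% with neither.

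Of 62 Wnt, Fgf, Bmp and Gdf ligand genes 38 had H3K27me3. Both marks were listed at 41.9% of the 62 and neither at 22.6%, against 11.2% and 34.0% of all protein-coding genes. Over all protein-coding genes 60.8% had H3K4me3 and 16.4% H3K27me3. Of 21 Bmp and Gdf ligands 6 had both marks, 4 H3K27me3 only, 4 H3K4me3 only and 7 neither. Of 19 Wnt ligands 10 had both marks, 5 H3K27me3 only and 3 H3K4me3 only, and of 22 Fgf ligands 10, 3 and 3. Of 10 Frizzled receptors, which bind Wnt ligands, 5 had both marks, 4 H3K4me3 only and 1 H3K27me3 only, and the widest H3K27me3 peak at those 6 had a median of 316.5 bp against 1240 bp for the Wnt ligands. At Wnt1 a H3K4me3 peak of 209 bp lay inside a H3K27me3 peak of 4835 bp. All 10 Notch pathway genes had H3K4me3, and 3 of them (Notch2, Notch3 and Dll4) also had H3K27me3. Of 7 Cdk inhibitor genes, which restrain the cell cycle, 4 had both marks. At Cdkn2a the H3K27me3 peak was 23311 bp wide and the H3K4me3 peak of 1399 bp lay beside it with a fold enrichment of 14.8.

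Among genes of neurons and of neural stem cells both marks were more frequent than over all protein-coding genes. Of the latter 11.2% had both marks, 49.6% H3K4me3 only, 5.17% H3K27me3 only and 34.0% neither. Of 20 neuronal genes 11 had both marks, 3 (Tbr1, Neurod6 and Slc17a7) H3K27me3 only, 5 (Map2, Syt1, Snap25, Tubb3 and Dcx) H3K4me3 only and 1 (Th, for dopamine synthesis) neither. Slc17a6 and Slc32a1, the vesicular transporters of glutamate and GABA, stood in H3K27me3 peaks of 13978 and 9795 bp. Their H3K4me3 peaks had only 198 and 203 bp. Of 16 neural stem cell genes 10 had both marks and 6 (Fabp7, Sox2, Nes, Hes5, Msi1 and Sox3) H3K4me3 only. Of 27 glutamate receptor genes 17 had H3K4me3 only and 9 both marks, and Grin2c had H3K27me3 only. All 4 AMPA receptor subunits (Gria1 to Gria4) were among the first. Of 92 potassium channel genes 37 had H3K4me3 only, 27 both, 6 H3K27me3 only and 22 neither.

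Housekeeping genes had H3K4me3 only in 299 of 335 cases, 89.3%, and neither mark in 4.18%. Over all protein-coding genes 49.6% had H3K4me3 only, 34.0% neither mark and 16.4% H3K27me3 with or without H3K4me3. Among the exceptions were copies known for expression in other tissues. With neither mark stood Rpl10l and Psma8, which act in the testis, and Cox6a2, Cox7a1 and Cox8b, which serve heart and skeletal muscle. Sf3b5 of the splicing list also had neither mark. H3K27me3 only was listed at Rpl3l of muscle and Psmb11 of the thymus. Both marks were listed at 20, and the H3K27me3 peaks at the 22 genes that had one had a median width of 284 bp. At Rpl38 the H3K27me3 peak had 244 bp and a fold enrichment of 12.5, beside a H3K4me3 peak of 1108 bp with 12.1. At Rps3 the H3K27me3 peak had 177 bp. Of 68 replication-dependent histone genes 65 had H3K4me3 only and 0 had H3K27me3, and of 26 genes of cholesterol and myelin lipid synthesis 25 had H3K4me3 only.

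The genes of the Polycomb and trithorax machinery, which includes the writers and erasers of the marks, had H3K4me3 in 31 of 31 cases. Over all protein-coding genes the share was 60.8%. Both marks were found at 6 genes, 19.4% against 11.2% of all protein-coding genes. Among the 6 were Bmi1, Cbx2, Cbx7, Cbx8 and Phc2, which code for subunits of Polycomb repressive complex 1. Cbx8 had the widest H3K27me3 peak of the list, 10198 bp with a fold enrichment of 5.30. Ezh2, Eed and Suz12, the core of Polycomb repressive complex 2, had H3K4me3 only, with 2817, 2308 and 1519 bp.

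Most genes of large families that serve the nose, the skin and immune defence had neither mark, against 34.0% of all protein-coding genes. Neither mark was listed at 1056 of 1093 olfactory receptors, 315 of 327 vomeronasal receptors, 61 of 64 defensins and 89 of 105 keratins and keratin-associated proteins. The 29 olfactory receptor genes with H3K27me3 had peaks with a median of 233 bp, and the widest had 938 bp. H3K27me3 was listed at 14 of the 105 keratins and keratin-associated proteins, with a median of 188.5 bp. Over all protein-coding genes 16.4% had H3K27me3. Grouping all protein-coding genes by the letters that begin their symbols, with at least 15 members, described families outside the lists and some within them, such as Wnt and Fgf. H3K4me3 only was listed at 29 of 29 Mrps genes of the mitochondrial ribosome, 18 of 18 Kdm demethylases and 15 of 15 Ints genes of the Integrator complex. Neither mark was listed at 34 of 34 Rhox homeobox genes, which serve reproductive tissue, and 22 of 22 Mup genes for urinary proteins. Among these groups, Wnt genes ranked first by the share with both marks (52.6%) and also by the share with H3K27me3 only (26.3%), followed for both marks by Fgf genes (45.5%). Families that formed no such group, among them the Hox and Dlx genes, were not ranked.

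Where both marks were listed at a gene, their peaks often did not touch. Of the 3204 genes, 1656 had overlapping peaks in the window (51.7%, 49.9 to 53.4%) and 1548 had peaks that lay apart. The H3K27me3 peak was wider at the first, with a median of 1036 bp (quartiles 484.2 and 2965 bp) against 508 bp (212 and 878.2 bp). The fold enrichment of H3K27me3 had medians of 5.74 and 4.14, and that of H3K4me3 medians of 5.82 and 5.59. A wider peak also fills more of the window, and the share that overlapped went from 35.7% of the 1192 genes whose widest H3K27me3 peak was under 500 bp to 89.4% of the 311 genes with one of at least 5 kb. Of the 105 patterning genes with both marks 89 had overlapping peaks, and of the 20 housekeeping genes with both marks 3 did.

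The marks were arranged differently along the promoter. Each gene was placed at its 5′ end, with its state taken there, which left 13678 genes with H3K4me3 only, 2562 with both marks and 2403 with H3K27me3 only. H3K4me3 peaked 200 bp downstream of the start, where it covered 84.0% of the genes with H3K4me3 only and 67.6% of the genes with both marks, and at 1 kb upstream it covered 17.5% and 13.5%. H3K27me3 at genes with both marks dipped at the start. It covered 30.95% of the genes at 1 kb upstream, 19.7% at the start itself, 22.1% at 500 bp downstream and 27.2% at 1 kb downstream. At genes with H3K27me3 only the same positions gave 24.9%, 21.7%, 25.5% and 26.6%. At 5 kb from the start, outside the window that defined the states, H3K27me3 still covered 12.9 to 13.6% of the genes with H3K27me3 on either side, whereas H3K4me3 covered 1.48 to 1.99% of the genes with both marks.

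**Figure D3:**
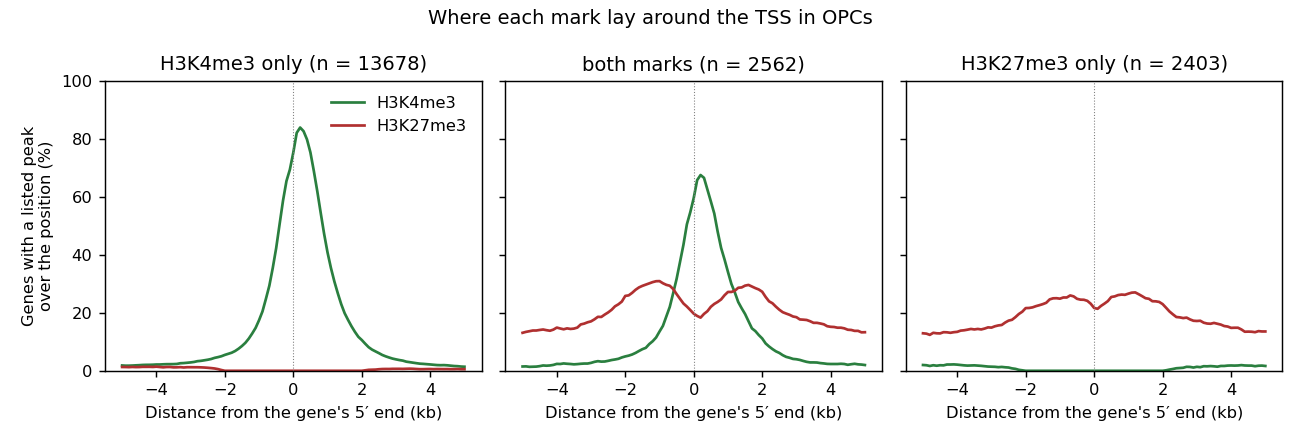
Percent of genes with a listed H3K4me3 peak (green) or H3K27me3 peak (red) over each position from 5 kb upstream to 5 kb downstream of the gene's 5′ end, read every 100 bp, for genes with H3K4me3 only, both marks and H3K27me3 only at that end. H3K4me3 forms a narrow summit 200 bp downstream, and H3K27me3 forms a shoulder on either side that falls from 30.95% at 1 kb upstream to 19.7% at the start of genes with both marks; zero values within 2 kb follow from the definition of the states.

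Base composition, which the states did not use, differed between promoters with H3K4me3, alone or with H3K27me3, and those without it. CpG observed/expected, the number of CpGs divided by that expected from the C and G present, was read over 500 bp either side of the 5′ end. Its median was 0.73 at genes with H3K4me3 only (quartiles 0.58 and 0.84), 0.69 with both marks (0.54 and 0.81), 0.29 with H3K27me3 only (0.19 and 0.48) and 0.19 with neither (0.13 and 0.28). Promoters with a ratio of at least 0.6 and a GC content of at least 55% were called CpG-rich. They made up 59.8% of the genes with H3K4me3 only (59.0 to 60.7%) and 57.5% of those with both marks (55.5 to 59.4%), so that these intervals overlapped. CpG-rich promoters made up 12.4% of the genes with H3K27me3 only (11.1 to 13.8%) and 0.82% of those with neither (0.71 to 0.94%). Read the other way, 80.6% of the 10148 CpG-rich promoters had H3K4me3 only, 14.5% both marks, 2.94% H3K27me3 only and 1.92% neither.

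Base composition varied within the state of H3K27me3 only, and with the width of H3K27me3. The median CpG ratio was 0.39 at the protein-coding genes and 0.24 at the lncRNAs of that state. Protein-coding genes with H3K27me3, with or without H3K4me3, were grouped by their widest H3K27me3 peak. Their median ratio went from 0.55 under 500 bp to 0.67 at 2 kb or more, whether up to 5 kb or beyond. Both marks were listed at 64.6 to 73.5% of the genes of each width class, so these medians are not those of H3K27me3 only. Genes with H3K27me3 only had a widest H3K27me3 peak under 500 bp in 47.7% of cases and of at least 5 kb in 9.03%. Protein-coding genes with both marks were longer, with a median length of 28510 bp against 24730 bp with H3K4me3 only, 12230 bp with H3K27me3 only and 9312 bp with neither.

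**Figure D4:**
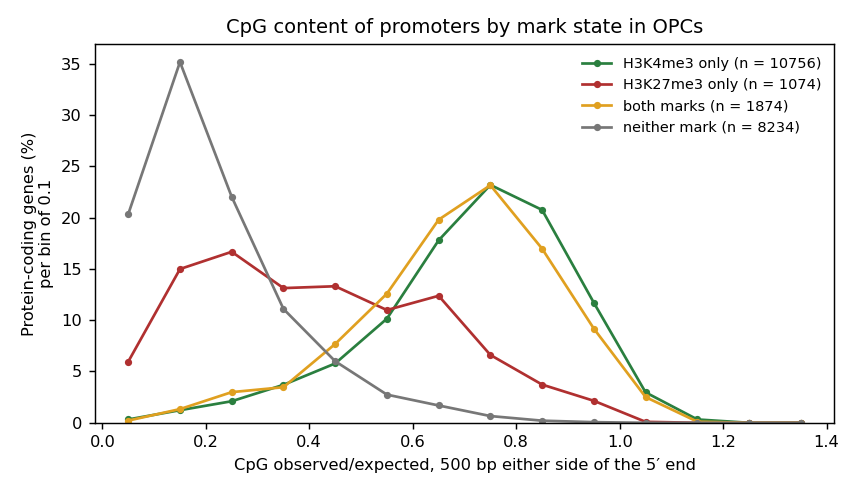
Percent of protein-coding genes of each mark state per bin of 0.1 of the CpG observed/expected ratio over 500 bp either side of the 5′ end. Genes with H3K4me3 only and with both marks lie together, with medians of 0.74 and 0.71, genes with neither mark lie low with a median of 0.18, and genes with H3K27me3 only spread between them with a median of 0.39.

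The width of H3K4me3 was related to the other mark and to OLIG2, the transcription factor whose binding was measured by a separate ChIP-Seq library of OPCs (7384 called peaks). Among protein-coding genes H3K27me3 was also present at 34.2% of the 1040 genes whose widest H3K4me3 peak was under 500 bp (31.4 to 37.2%) and at 15.4% of the 2936 genes with 2 to 5 kb (14.1 to 16.7%). An OLIG2 peak within 2 kb of a TSS was found at 5.19% of the first (3.92 to 6.72%) and 13.6% of the second (12.3 to 14.8%). These 2 classes also differed in median CpG ratio, 0.55 and 0.81, and in median gene length, 17010 and 38160 bp. The part of these, or of the number of start sites per gene, was not tested. At the 123 genes with at least 5 kb of H3K4me3 the share with OLIG2 was 16.3% (10.2 to 23.99%), among them Sox8, Myc, Nfib and Zeb2. Olig2, Sox10, Pdgfra, Sox6, Gpr17 and Lhfpl3 were in the same width class and had no OLIG2 peak in the window. Of the 22 OPC identity genes 1 had an OLIG2 peak, against 6.15% of all protein-coding genes. Of these 123 genes 16 had both marks. Among the 16 were 8 predicted genes under 1 peak of 32044 bp on chromosome 9, with a fold enrichment of 2.67 and no OLIG2 peak. With the width of H3K27me3 the share with OLIG2 stayed between 6.43% and 9.37%, within counting error. By state, OLIG2 peaks lay at 8.64% of genes with H3K4me3 only (8.18 to 9.12%), 9.52% with both marks (8.53 to 10.6%), 3.90% with H3K27me3 only (3.18 to 4.73%) and 1.406% with neither (1.26 to 1.57%). Taken over all genes with both marks, the difference from H3K4me3 only was thus within counting error. Split by overlap, OLIG2 lay at 10.57% of genes with overlapping marks (9.13 to 12.15%) and 8.40% with marks apart (7.06 to 9.89%). The interval with overlapping marks lay just above that of H3K4me3 only. Among protein-coding genes these intervals overlapped, with 9.32 to 12.95% for overlapping marks and 8.40 to 9.48% for H3K4me3 only.

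**Figure D5:**
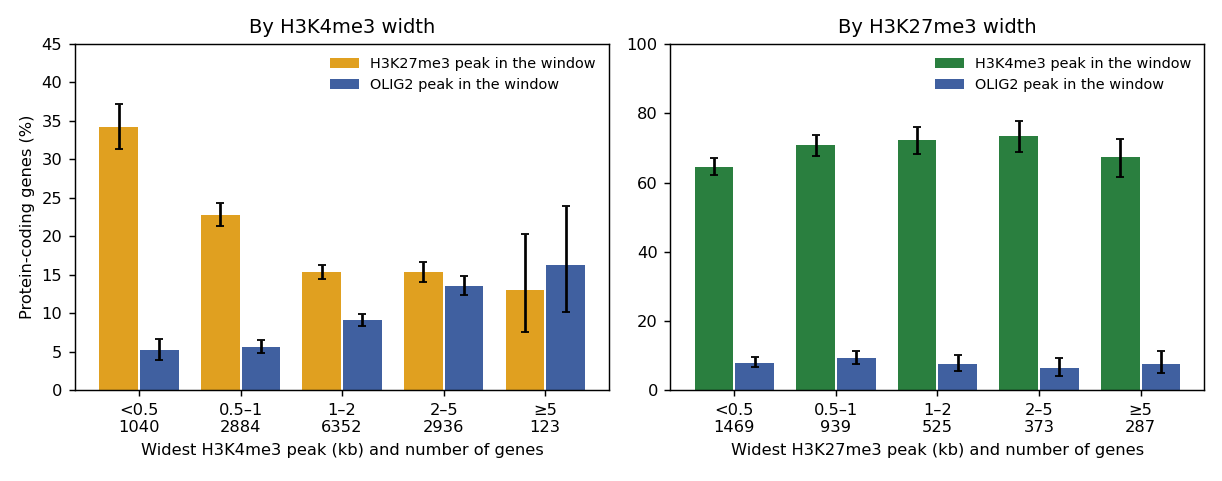
Percent of protein-coding genes with the other mark (gold or green) or an OLIG2 peak (blue) within 2 kb of a TSS, by the width in kb of the gene's widest H3K4me3 peak (left) or H3K27me3 peak (right), with exact binomial 95% intervals and the number of genes under each class; the vertical scales differ. OLIG2 rises from 5.19% to 16.3% with H3K4me3 width while H3K27me3 falls from 34.2% to 13.0%, and on the right OLIG2 stays between 6.43% and 9.37%. Of the 16 genes with both marks in the widest H3K4me3 class, 8 share 1 peak on chromosome 9, with a fold enrichment of 2.67.

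The strongest and the widest peaks were at different genes. By width, H3K4me3 only was led by Pou3f3 (13533 bp), a POU factor of neural progenitors, Qk (11441 bp), the RNA-binding protein of myelinating cells, Sox6 with the neighbouring 1110004F10Rik, and Slitrk2 (10236 bp). By fold enrichment it was led by Rad51c and Tex14, which share 1 peak of 347 bp at 43.3. For H3K27me3 only the widest peaks were those of the Hox clusters, and the highest fold enrichment was 19.5 at Ptger3, in a window whose widest peak had 440 bp. Among genes with both marks Chat and Slc18a3, the neighbouring genes for the synthesis and the vesicular transport of acetylcholine, had the highest H3K4me3 fold enrichment, 42.0 over 405 bp. They ranked after Tbx21 (24.3) by H3K27me3 fold enrichment, with 23.0. At Tbx21 a H3K27me3 peak of 396 bp shared 395 bp with a H3K4me3 peak. The widest H3K4me3 peak with both marks had 32044 bp at the start of chromosome 9 (3006239 to 3038282), over 8 predicted genes such as Gm10721, with a fold enrichment of 2.67, and the H3K27me3 peak at Gm10721 had a fold enrichment of 1.89.

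By chromosome, both marks were listed at 8.11 to 15.6% of the protein-coding genes of each autosome, and H3K27me3 only at 3.29 to 7.39%. On the X chromosome both marks were listed at 8.65%, H3K27me3 only at 3.38% and neither at 51.7%, against 11.4%, 5.29% and 32.7% of the autosomal genes. The X chromosome held 1611 H3K27me3 peaks with a median width of 227 bp, against 340 bp on the autosomes.

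The OPC state was compared with the states in neural stem cells (NSCs) and newly formed oligodendrocytes (NFOs), which have 1 library per mark and cell type as well. The NSCs were bought cells of embryonic cortex grown in culture, from CD-1 mice by the growth protocol but C57BL/6 by the strain label, whereas OPCs and NFOs were purified from brain. Age, culture, possibly strain, and read layout (the peak names carry the word single in NSCs and paired in OPCs and NFOs) cannot be told apart from cell type in the comparison with NSCs, nor can depth in either comparison. Of the 3204 genes with both marks in OPCs, 43.3% (41.6 to 45.1%) had both in NSCs and 51.8% (50.1 to 53.6%) H3K4me3 only. The shares of all genes in NSCs were 8.06% with both and 35.6% with H3K4me3 only. In NFOs 34.7% (33.0 to 36.4%) had both, 30.7% (29.1 to 32.3%) H3K4me3 only, 18.3% (17.0 to 19.7%) H3K27me3 only and 16.3% (15.1 to 17.7%) neither. The shares of all genes in NFOs were 3.32%, 25.5%, 4.30% and 66.9%. Genes with H3K4me3 only in OPCs had neither mark in NFOs in 30.2% of cases. Genes whose peaks overlapped in OPCs had both marks in NSCs in 52.9% of cases (50.5 to 55.3%) and in NFOs in 48.6% (46.1 to 51.0%), and genes whose peaks lay apart in 33.1% (30.7 to 35.5%) and 19.8% (17.9 to 21.9%). Both marks were listed at 29 of the 39 Hox genes in NSCs, against 20 in OPCs and 23 in NFOs, and the others had H3K27me3 only. The 22 OPC identity genes included 13 with H3K4me3 only and 6 with both marks in NSCs, 19 and 1 in OPCs, and 19 and 0 in NFOs.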

How the data were processed

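OPC H3K4me3 and H3K27me3 libraries were compared. The authors aligned reads with Bowtie2 to mm10 (GRCm38), retained unique alignments, used MACS2 in broad mode for both marks and SPP for OLIG2, and dropped blacklisted intervals. Each deposited list gives a peak's position, its fold enrichment over control (a ratio), and the −log10 of its p-value and of its FDR. All listed peaks were used, and their read depth is unknown. Genes were GENCODE release M21 protein-coding genes and lncRNAs, plus 7195 NCBI lncRNAs. A gene held a mark if a peak came within 2 kb of any of its TSSs, and marks overlapped from 1 shared bp. The members and the 55 gene lists were chosen with earlier results of these data known, so list counts are descriptions without tests. Named genes are list members, the 5 widest and 5 most enriched per mark and state, and genes the study names beside a mark; Myc, Nfib and Zeb2 were chosen after their values were seen. State assignment was tested on simulated data. NumPy 2.4.6 and pandas 2.3.3 ran in Python 3.11.15 with SciPy 1.17.1 and Matplotlib 3.10.9. Alternatives varied the peak filter, window, TSSs, gene set, H3K27me3 width and overlap. RIP-Seq and NFO OLIG2 data were left out. Some genes of the lists are counted but not reported here by name.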

Additional observations from a re-analysis of the deposited data

How the results depend on the processing

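Over all genes, the counts with H3K4me3 only (13815) and with neither mark stayed within 1.5 times under each peak filter and window tried, whereas the counts with H3K27me3 moved. With a fold enrichment above 5, both marks were left at 1006 genes, overlapping at 597, and H3K27me3 only at 1504, and the covered length fell to 8313088 bp for H3K27me3 and 327182 bp for both marks. With H3K27me3 peaks of at least 1 kb alone, both marks were found at 1153 genes, overlapping at 763, and H3K27me3 only at 718. A window of 5 kb gave 5265 genes with both marks, and an overlap of at least 200 bp left 1061 overlapping genes. Both marks at the same TSS, an alternative chosen after seeing the data, removed 305 genes and left 2899. Protein-coding genes alone held 1134 genes with H3K27me3 only and 7469 with neither because fewer genes were counted, and their CpG-rich shares were 63.7% with H3K4me3 only, 63.2% with both marks, 21.9% with H3K27me3 only and 1.70% with neither. The study's own filter (FDR below 0.05 and fold enrichment above 3.5) kept the OPC state counts within 1.5 times. Under it the OPC genes with both marks had in NSCs both marks in 35.6%, H3K4me3 only in 57.3%, H3K27me3 only in 2.55% and neither in 4.57% of cases, and in NFOs 32.4%, 27.7%, 19.99% and 19.9%. OLIG2 peaks more than 5-fold enriched at an FDR under 0.05 lay at 7.96% of genes with H3K4me3 only, 8.49% with both marks and 1.22% with neither. Of 81 values under alternatives 54 stayed within 1.5 times (counts) or their interval (shares). The cause of the others was not tested. The patterning genes with H3K27me3 (166) numbered 129 to 168, and the housekeeping genes with H3K4me3 only (299) numbered 269 to 318, over 6 alternatives. Read depth is unknown, so what it limits could not be measured. No paired analysis was possible because each mark has 1 library.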
